A study of Mus musculus with 8 samples.

Results

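The Cited genes encode small nuclear proteins that do not bind DNA themselves. They bind the acetyltransferases CBP and p300 through an acidic carboxy-terminal domain and link them to DNA-binding factors, so they adjust how strongly other factors activate their genes. CITED2 competes with the hypoxia-inducible factors for CBP and p300 and also acts with the AP-2 (TFAP2) factors and with SMAD proteins, CITED1 acts with SMAD4 and with the estrogen receptor, and CITED4 acts with AP-2. In granulosa cells, which surround the oocyte, *Cited4* is known as a gene induced by luteinizing hormone (LH) before ovulation. All 3 genes with these names in the table of counts, *Cited1*, *Cited2* and *Cited4*, are described here, out of 45583 gene symbols, and all 3 were among the 16601 genes with enough counts to be compared. They were selected with their WT and GOAT KO values already known, so those values are given as a description without a test.

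Ovaries came from female mice at 3 weeks of age, before puberty, 1 ovary and 1 library per mouse, with 4 libraries labelled WT and 4 labelled GOAT KO on the C57/Bl6 strain. GOAT KO mice lack ghrelin O-acyltransferase, the enzyme encoded by *Mboat4* that attaches the acyl group to ghrelin. The deletion was global, the mice were not treated, and both genotypes were littermates from heterozygous parents. Libraries are named by their label and animal number, 1118, 1119, 1120 and 1121 for WT and 1139, 1140, 1141 and 1146 for GOAT KO.

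Counts on genes summed to between 16147216 and 19481798 per library. *Mboat4* had 1, 1, 1 and 3 counts in the libraries labelled WT and 5, 7, 7 and 8 in those labelled GOAT KO, which goes against the labels, and the counts do not say whether the reads lay in the deleted part of the gene. Every direction given here therefore compares libraries as labelled. Markers of granulosa cells (14 of 14) and of oocytes (14 of 14) passed the filter on low counts in these ovaries. GOAT KO 1139 stood apart, with fat cell markers summing to 1237 CPM (the usual unit of counts scaled to library size) against 25.4 to 64.5 CPM in the other 7 libraries. A further set of 6 libraries, without WT 1120 and GOAT KO 1139, was fitted as well. The study left out 1 library of each genotype without naming them, and this pair was chosen here from a scaling plot of an earlier look at these counts.

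The 3 genes lie on different chromosomes and differ in structure (mouse build GRCm38, mm10). *Cited4* (ENSMUSG00000070803.6) lies on the plus strand of chromosome 4 from 120666572 to 120667820 and is a single exon of 1249 bases. *Cited2* (ENSMUSG00000039910.10) lies on the plus strand of chromosome 10 from 17723218 to 17725674, with an intron from 17723460 to 17723937. *Cited1* (ENSMUSG00000051159.16) lies on the minus strand of chromosome X from 102247381 to 102252181, with 5 annotated transcripts that start from separate first exons and end in the same last exon, exon 3. No other annotated gene overlaps any of them.

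The bases before the transcription start are shown for *Cited4* and *Cited2*, the members with the largest difference and with the highest level, because they show how unlike their start regions are. Sequences are from RefSeq (GRCm38.p6), on the plus strand and 5′ to 3′, with matches to 4 short motifs on either strand in capitals: TATAAA (the TATA box), the CCAAT box, the GC box GGGCGG and the core bound by hypoxia-inducible factors, ACGTG.
Cited4 chr4:120666313-120666562: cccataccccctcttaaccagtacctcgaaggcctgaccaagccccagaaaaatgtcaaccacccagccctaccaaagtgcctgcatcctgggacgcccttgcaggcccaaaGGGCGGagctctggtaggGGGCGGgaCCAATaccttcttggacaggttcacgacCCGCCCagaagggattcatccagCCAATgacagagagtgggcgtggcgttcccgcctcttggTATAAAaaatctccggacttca
Cited2 chr10:17722978-17723217: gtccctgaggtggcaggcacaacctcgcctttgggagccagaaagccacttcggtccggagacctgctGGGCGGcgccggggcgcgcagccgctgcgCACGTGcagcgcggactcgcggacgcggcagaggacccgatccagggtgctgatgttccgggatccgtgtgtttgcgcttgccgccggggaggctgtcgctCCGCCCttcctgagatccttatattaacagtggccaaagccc

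In the *Cited4* stretch TATAAA began at -22 from the RefSeq start, CCAAT was found at -112 and -61, and GGGCGG was found at -138 and -120 and, on the other strand, at -84. The *Cited2* stretch, which was ended before the first annotated exon and is 240 bases long, held GGGCGG at -182 and, on the other strand, at -52. It also held CACGTG, which reads as ACGTG on both strands at overlapping positions, beginning at -152 on the plus strand. Neither ACGTG in *Cited4* nor TATAAA or CCAAT in *Cited2* was found in these windows. Of 32817 mouse promoters with the same 250 bases before the start, 12.4% held TATAAA, 33.8% CCAAT, 32.7% GGGCGG and 16.6% ACGTG, so *Cited4* carried the less common TATA match. These are matches of letters and not shown to be sites.

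*Cited2* was the most abundant of the 3 in every library. Per kilobase of annotated exon its mean level was 63.6 ± 11.5 RPKM (reads per kilobase of exon, scaled to library size, SD, n = 8), against 4.67 ± 1.91 RPKM for *Cited4* and 3.23 ± 0.62 RPKM for *Cited1*. The level of *Cited2* was 14.5 times that of *Cited4* (3.86 ± 0.70 on the log2 scale, SD of 8 within-library differences) and 19.7 times that of *Cited1* (4.30 ± 0.41), and it was higher in 8 of 8 libraries in both comparisons. The two-sided exact permutation test on paired differences gave p = 0.00781 for each, the smallest value that 8 libraries allow, and p = 0.0117 after adjustment over the 3 pairs. In these whole ovaries 91.4% of the tested genes had a lower mean count than *Cited2*, whereas 27.5% were lower than *Cited4* and 27.1% lower than *Cited1*.

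The order of *Cited4* and *Cited1* was not settled. On the length of all annotated exons *Cited4* was 0.44 ± 0.62 higher on the log2 scale of RPKM (SD, n = 8), higher in 6 of 8 libraries, with differences from -0.51 to 1.21 (two-sided exact permutation test, p = 0.102, adjusted p = 0.102). In the WT libraries *Cited4* was at 6.07 ± 1.34 and *Cited1* at 3.37 ± 0.81 RPKM (SD, n = 4), with *Cited4* the higher in 4 of 4. In the GOAT KO libraries they were at 3.27 ± 1.21 and 3.08 ± 0.43 RPKM (SD, n = 4), and *Cited1* was the higher in GOAT KO 1141 and GOAT KO 1146. With GOAT KO 1141 or GOAT KO 1146 left out, the libraries that go the other way, the adjusted p was 0.0469 (exact permutation test). With any other single library left out it was 0.125 to 0.203, so nothing is read from the lower value. With the longest annotated transcript of each gene the direction turned, to -0.25, because the exons of the separate *Cited1* first exons add up to 1754 bases and its longest transcript has 1090.

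**Figure D1:**
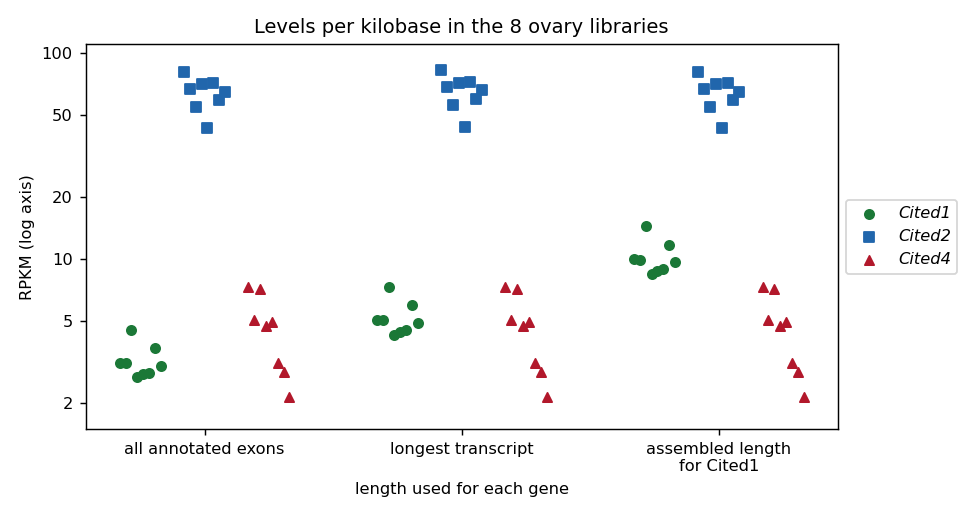
Levels of the 3 Cited genes in RPKM (log axis) in each of the 8 ovary libraries, for 3 choices of gene length. Cited2 lies far above the other 2 genes under each choice, while Cited1 moves from a mean of 3.23 to 10.2 RPKM and changes place with Cited4 at 4.67 RPKM.

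The transcripts assembled at *Cited1* lay around its last exon. Not a single read crossed any of the 6 annotated *Cited1* junctions in any of the 8 libraries, while the gene had 800 counts in all. That 0 allows up to 0.375% of the counts (3 reads, counting error only). For comparison, the 2 annotated *Cited2* junctions had 401 reads for 21895 counts, which is 1.83%, with 34 to 63 reads per library. Among tested genes with an annotated intron and at least as many counts as *Cited1*, 308 of 11011 (2.80%) likewise had no read across an annotated junction, so *Cited1* belongs to a small share of genes but is not alone.

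The transcripts the authors assembled give the same picture. Each library held 1 unspliced *Cited1* transcript on the minus strand, outside the guide annotation and 503 to 618 bases long. Its low coordinate lay between 102247444 and 102247477 and its high coordinate between 102247955 and 102248094 on chromosome X. The last exon runs from 102247381 to 102248008 and holds 549 of the 609 coding bases, from 102247460. The assembled transcript covered 90.3% of these coding bases in WT 1118, 96.9% in WT 1119, 99.8% in WT 1120 and 99.5% in WT 1121. It covered 98.0% in GOAT KO 1139, 98.7% in GOAT KO 1140, 100% in GOAT KO 1141 and 99.8% in GOAT KO 1146. Both genotypes thus had the same kind of transcript, and in 2 libraries, WT 1119 (by 86 bases) and GOAT KO 1141, it ran past the exon into the intron. If the mean assembled length of 553 bases is used for *Cited1*, its level becomes 10.2 RPKM and *Cited4* is 1.23 lower on the log2 scale (p = 0.00781, exact permutation test on 8 pairs, adjusted p = 0.00781). This length was chosen after the data were seen, moves every library by the same amount and was set against all counts of the gene. Nothing is therefore read from this p. *Cited2* and *Cited4* were assembled as guide transcripts in every library.

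*Cited1* did not separate the genotypes. Its values in the WT libraries 1118, 1119, 1120 and 1121 were 5.51, 5.50, 7.96 and 4.69 CPM, scaled by library size. In the GOAT KO libraries 1139, 1140, 1141 and 1146 they were 4.85, 4.95, 6.50 and 5.35 CPM. WT 1120 was the highest of all and GOAT KO 1141 the next, and the GOAT KO values all lay within the range of the WT values. The means were 5.92 ± 1.42 and 5.41 ± 0.76 CPM (SD, n = 4 each), with a log2 fold change of GOAT KO over WT of -0.13 (SE 0.18). Without WT 1120 the fold change was 0.05, and without both WT 1120 and GOAT KO 1139 it was 0.10, so its direction rested on WT 1120.

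*Cited2* varied as much among mice of a group as between groups. The WT libraries, in the same order, had 198, 163, 134 and 173 CPM. The GOAT KO libraries had 105, 174, 144 and 158 CPM. The groups overlapped widely, with the lowest WT value in WT 1120 and the lowest of all in GOAT KO 1139. The means were 167 ± 26.3 and 146 ± 29.4 CPM (SD, n = 4 each) and the log2 fold change was -0.20 (SE 0.15). It was -0.07 without GOAT KO 1139, the library rich in fat cell markers. Of the 8 listed fat markers 7 passed the filter, and none of the 8 was at 0 in all libraries. All 7 were called higher in GOAT KO by edgeR, beside 1.67% of all tested genes called, and 1 by DESeq2 and by limma-voom. Without GOAT KO 1139 edgeR called 0 (0 with an unadjusted p under 0.05). In the 6 libraries it called 1 of 7 higher, beside 2.39% of all tested genes called. The part of fat tissue in the *Cited2* value was not tested. In bulk tissue fewer cells of a type and less RNA per cell cannot be told apart.

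*Cited2* splicing was alike in kind in all libraries. The junction over the intron from 17723460 to 17723937 had 52, 58, 33 and 44 reads in the WT libraries and 42, 58, 63 and 47 in the GOAT KO libraries. The annotated shorter form of the intron, starting at 17723582, had 1 to 2 reads in WT 1120, WT 1121 and GOAT KO 1139 and none elsewhere. A junction from 17724155 to 17724372, inside the coding part of the second exon and not annotated, had 3 reads in WT 1118, 2 in WT 1121 and 2 in GOAT KO 1140.

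*Cited4* was lower in the libraries labelled GOAT KO. The WT libraries had 9.11, 6.33, 8.95 and 5.94 CPM (147, 114, 163 and 109 counts). The GOAT KO libraries had 6.22, 3.91, 3.53 and 2.67 CPM (104, 64, 69 and 46 counts). GOAT KO 1140, 1141 and 1146 lay below every WT library, whereas GOAT KO 1139 lay above WT 1121 and just under WT 1119, so the groups overlapped. The means were 7.58 ± 1.68 and 4.08 ± 1.52 CPM (SD, n = 4 each), a log2 fold change of -0.89 (SE 0.25), which is 0.538 of the WT level.

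Without WT 1120 and GOAT KO 1139 the *Cited4* means were 7.13 ± 1.72 and 3.37 ± 0.63 CPM (SD, n = 3 each), the groups no longer overlapped, and the log2 fold change was -1.07 (SE 0.21). The 2 libraries outside this set stood at 8.95 CPM (WT 1120) and 6.22 CPM (GOAT KO 1139). Leaving out single libraries gave values from -0.74 (without GOAT KO 1146) to -1.17 (without GOAT KO 1139). With all 8 libraries *Cited4* was the only 1 of the 3 genes past the study's call rule, an unadjusted p under 0.05 with a log2 fold change beyond 0.5 in either direction. Of all 16601 genes 1.67% passed it, 0.717% as lower and 0.958% as higher in GOAT KO, while 0.0241% (4 genes) had an adjusted p under 0.05 and 1.27% had every GOAT KO value below every WT value. In the set of 6 libraries 2.39% passed, and 7.55% had all GOAT KO values below all WT values. Since *Cited4* was chosen from this contrast, nothing is read from its passing.

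**Figure D2:**
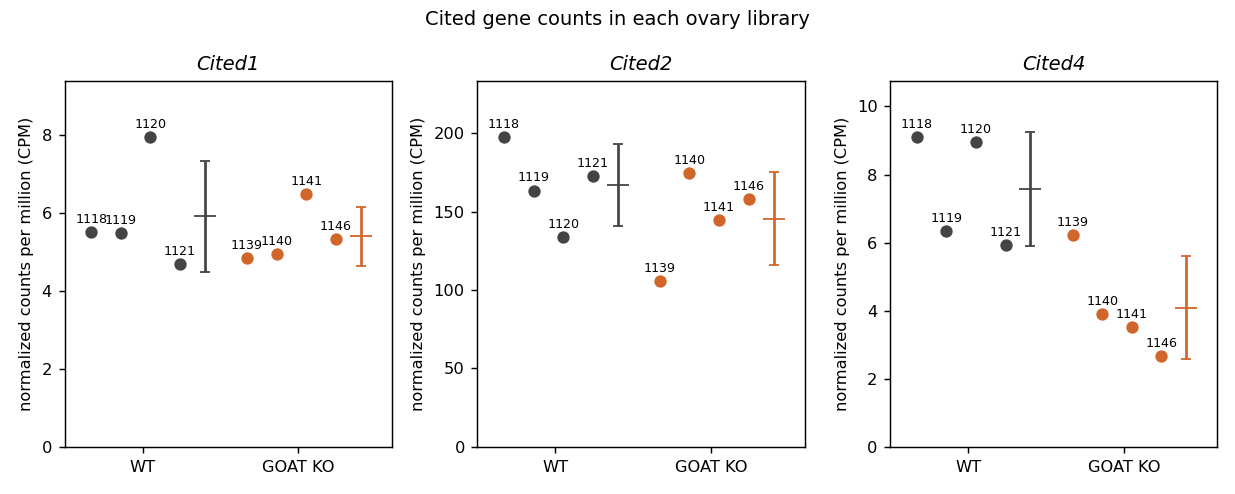
CPM of the 3 Cited genes in each ovary library (points, labelled with the animal number), with the mean and SD of each group beside them (n = 4). For Cited4 the 3 libraries GOAT KO 1140, 1141 and 1146 sit between 2.67 and 3.91 CPM, below the 4 WT libraries, while GOAT KO 1139 at 6.22 CPM sits among them.

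The spread among mice was widest for *Cited4*. Pooled over the groups, the SD of log2 CPM within a group was 0.43 for *Cited4*, 0.28 for *Cited2* and 0.27 for *Cited1*. Marker lists of ovarian and other cell types were set beside this spread, and the marker genes named from them were named after their values were seen. Striated muscle markers summed to 11.1 to 24.6 CPM in the WT libraries and to 7.06 to 9.84 CPM in the GOAT KO libraries, without overlap, and none of the 8 was at 0 in all libraries. Of the 5 tested, 2 were called lower (*Myh6*, a cardiac myosin gene, -1.99, and *Myh7*, -0.52), while *Ckm* (0.44), *Mylpf* (0.13) and *Tnnt3* (0.04) had positive values and the median was 0.04. The separation of the sums rested on *Myh6*, at 5.76 to 18.8 CPM in WT libraries and 1.91 to 4.53 CPM in GOAT KO libraries, since the sums of the remaining markers overlapped, and *Myh7* was no longer called without GOAT KO 1139 (-0.42) or in the 6 libraries (-0.45), and DESeq2 called 1 of the 5. Granulosa cell markers summed to 10100.2 to 12603 CPM in WT libraries and to 12115 to 12987 CPM in GOAT KO libraries, overlapping, with 1 of 14 called, *Inhba* (0.95 on the log2 scale, adjusted p = 0.983 with edgeR's quasi-likelihood test), which encodes a subunit of activin and inhibin. Of these 14 genes 12 had positive values and 5 had an unadjusted p under 0.05, beside 1.67% of all tested genes called and 4.62% with such a p, and the median was 0.18. In the 6 libraries 5 of 14 were called and 9 had an unadjusted p under 0.05, beside 2.39% and 9.46% of all tested genes. There the sums of the granulosa markers did not overlap, at 10100 to 11861 CPM in WT libraries and 12115 to 12818 CPM in GOAT KO libraries. Their part in the *Cited4* difference was not tested.

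With 8 libraries the remaining lists overlapped between the genotypes in their sums. Their counts stand beside 1.67% of all tested genes called and 4.62% with an unadjusted p under 0.05 in 8 libraries, and 2.39% and 9.46% in 6. Surface epithelium markers summed to 195 to 242 CPM in WT libraries and 203 to 245 CPM in GOAT KO libraries, with 0 of 13 called (1 with an unadjusted p under 0.05 by each of edgeR, DESeq2 and limma-voom), 5 positive and 8 negative. Of the same 13 genes 12 were negative in the 6 libraries and 4 had such a p, with 0 called by edgeR. Their sums did not overlap in these 6, at 226 to 242 CPM in WT libraries and 203 to 211 CPM in GOAT KO libraries. Every GOAT KO value lay below every WT value for 7.55% of all tested genes there. Theca cell markers summed to 3069 to 4450 CPM in WT libraries and 3736 to 4443 CPM in GOAT KO libraries, with 9 of 10 tested, 0 called and 0 with an unadjusted p under 0.05 by any of the 3 tools, and in the 6 libraries 4 of 9 had one. Of the 14 oocyte markers 11 were positive, 3 had an unadjusted p under 0.05 (2 by DESeq2) and 1 was called, *Sohlh1*, a germ cell transcription factor gene, at 0.87 (SE 0.32, adjusted p = 0.983, edgeR) and 1.08 in the 6 libraries. Red blood cell markers were negative for 5 of 5, with a median of -0.28 in 8 libraries, -0.34 in 6 and -0.09 without GOAT KO 1139. They had sums of 146 to 591 CPM in WT libraries and 160 to 336 CPM in GOAT KO libraries, and 0 called or with an unadjusted p under 0.05 by the 3 tools. Endothelial markers (8 tested) and oviduct markers (5 of 7) had 0 called by the 3 tools, with 0 and 1 unadjusted p under 0.05. None of these markers was at 0 in all libraries, and their part in the *Cited4* difference was not tested either.

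**Figure D3:**
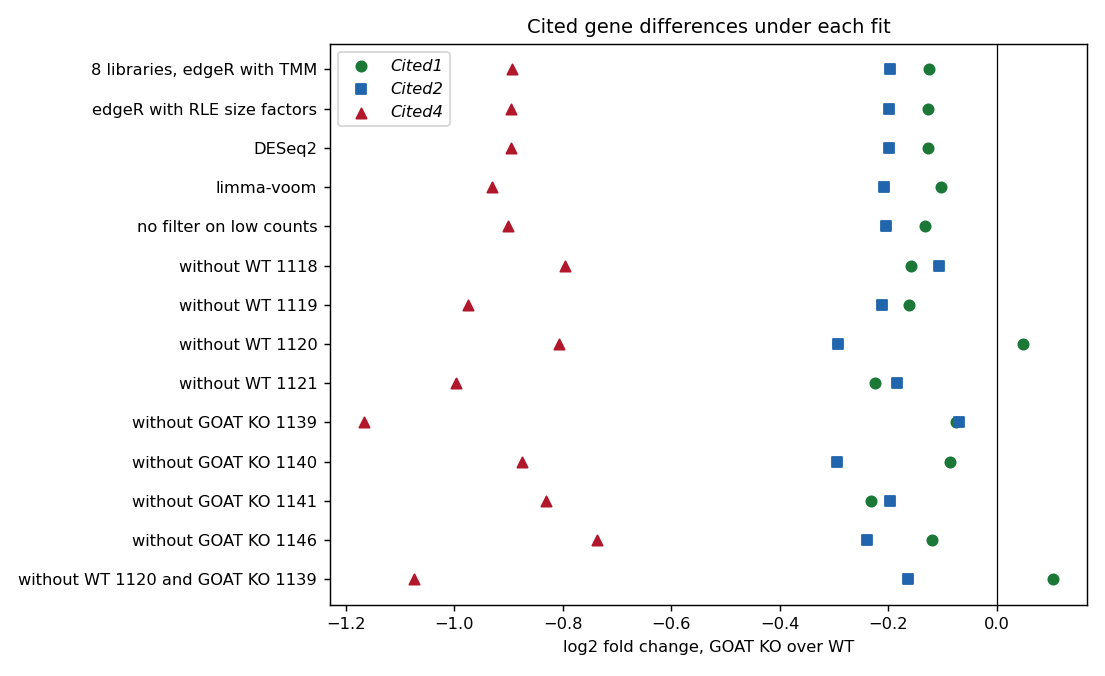
Log2 fold change of each Cited gene, GOAT KO over WT, under the fit with 8 libraries and under 13 alternatives, 1 row each. Cited4 stays between -1.17 and -0.74, Cited2 between -0.30 and -0.07, and Cited1 crosses 0 in the 2 rows that lack WT 1120.

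Position on the chromosome was a property the choice of genes did not use, so neighbouring genes were compared between genotypes by edgeR's quasi-likelihood test. Within 1 Mb of *Cited4* 14 other genes were tested and 0 passed the call rule, beside 1.67% of all tested genes. Of the 14, 1 had an unadjusted p under 0.05, beside 4.62% of all tested genes (by DESeq2 and limma-voom also 0 called and 1 such p). That 1 gene was *Col9a2* (-0.34, SE 0.14, adjusted p = 0.983, edgeR), which encodes a collagen chain and was named after its value was seen. Genes close by on the low side, *Foxo6* (-0.27), *Scmh1* (-0.04) and *Ctps* (0.09), and on the high side, *Nfyc* (-0.01) and *Rims3* (0.24), had no called difference. The 14 neighbours ranged from -0.34 to 0.24 in 8 libraries, beside -0.89 for *Cited4*, which was itself chosen for its difference. In the 6 libraries they ranged from -0.64 (*Edn2*, an endothelin gene, named after its value was seen) to 0.30. There 0 were called and 2 had an unadjusted p under 0.05, beside 2.39% and 9.46% of all tested genes. Of the 14 genes 12 were negative in 8 libraries and 10 in 6, beside 50.1% and 49.7% of all tested genes.

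In the wider window of 5 Mb around *Cited4*, 12 of 126 genes (9.52%) had an unadjusted p under 0.05, beside 4.62% of all tested genes, and 2 were called (1.59%, beside 1.67%). These were *Grik3*, which encodes a glutamate receptor subunit, at 1.52 (SE 0.31, adjusted p = 0.55, edgeR), and *D130007C19Rik* at -0.60. *Grik3* lies 4824 kb from *Cited4* and had 73.2, 68.5, 56.0 and 59.4 CPM in the WT libraries and 66.4, 238, 216 and 217 CPM in the GOAT KO libraries. GOAT KO 1139 lay within the WT range of *Grik3* and the other 3 GOAT KO libraries above it. At *D130007C19Rik* the WT libraries ran from 1.15 to 1.80 CPM and the GOAT KO libraries from 0.733 to 1.16 CPM, with GOAT KO 1146 the 1 inside the WT range. In the 6 libraries 18 of 125 genes (14.4%) had an unadjusted p under 0.05, beside 9.46% of all tested genes, and 3 were called (2.40%, beside 2.39%). *Grik3* was the 1 with an adjusted p under 0.05 there, at 1.74 (SE 0.08, adjusted p = 7.76e-06, edgeR). Both genes were named after their values were seen.

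Around *Cited1* 1 of 23 genes within 1 Mb (4.35%, beside 1.67% of all tested genes) was called, *Cxcr3*, a chemokine receptor gene of lymphocytes, which was lower in GOAT KO (-0.59, SE 0.25, adjusted p = 0.983, edgeR). Its mean was 1.42 ± 0.41 CPM in WT libraries and 0.933 ± 0.179 CPM in GOAT KO libraries (SD, n = 4). The call was lost with DESeq2 and without WT 1118 (-0.40), WT 1119, GOAT KO 1140, 1141 or 1146. In the 6 libraries 1 of the 23 was called and 4 (17.4%) had an unadjusted p under 0.05, beside 9.46% of all tested genes. The nearest genes *Nhsl2* (-0.07), *Ercc6l* (0.02) and *Rps4x* (0.14) on the low side and *Hdac8* (-0.08), *Phka1* (-0.05) and *Gm9109* (0.13) on the high side had none. Leukocyte markers summed to 35.3 to 50.3 CPM in WT libraries and to 34.3 to 40.3 CPM in GOAT KO libraries, with 7 of 10 tested. None was called (1 with an unadjusted p under 0.05 by edgeR) and none was at 0 in all libraries. Of the 7, 5 were negative, with a median of -0.25 in 8 libraries and -0.24 in 6. The part of these markers in the *Cxcr3* value was not tested. *Ercc6l* turned negative without WT 1118 or GOAT KO 1139, *Nhsl2* positive without GOAT KO 1140, and *Rps4x* negative without WT 1118. Of the 23 genes within 1 Mb 13 were negative in 8 libraries and 15 in 6. Within 5 Mb 2 of 71 genes were called (2.82%, beside 1.67% of all tested genes), *Cxcr3* and *Gm9670* (-0.64, SE 0.23). *Gm9670* was named after its value was seen. The 6 libraries also had 2 of 71 called, beside 2.39% of all tested genes.

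*Cited2* stands alone on its low side, where the next tested gene, *Vta1* (0.04), starts 3068 kb away, followed by *Adgrg6* (0.20) and *Hivep2* (0.21). On the high side the nearest were *Txlnb* (-0.32, at 73.0 kb), *Gm7584* (-0.24) and *Heca* (-0.07). Within 1 Mb 0 of 9 genes were called (0 with an unadjusted p under 0.05, and 0 by DESeq2 and limma-voom), and within 5 Mb 0 of 45 (1 with p under 0.05 by each of the 3 tools). Of all tested genes 1.67% were called and 4.62% had such a p by edgeR. Of the 9 genes within 1 Mb 8 were negative in 8 libraries and 8 in the 6, beside 50.1% and 49.7% of all tested genes. *Txlnb* passed the rule without WT 1120 and GOAT KO 1139, at -0.54 (SE 0.22).

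**Figure D4:**
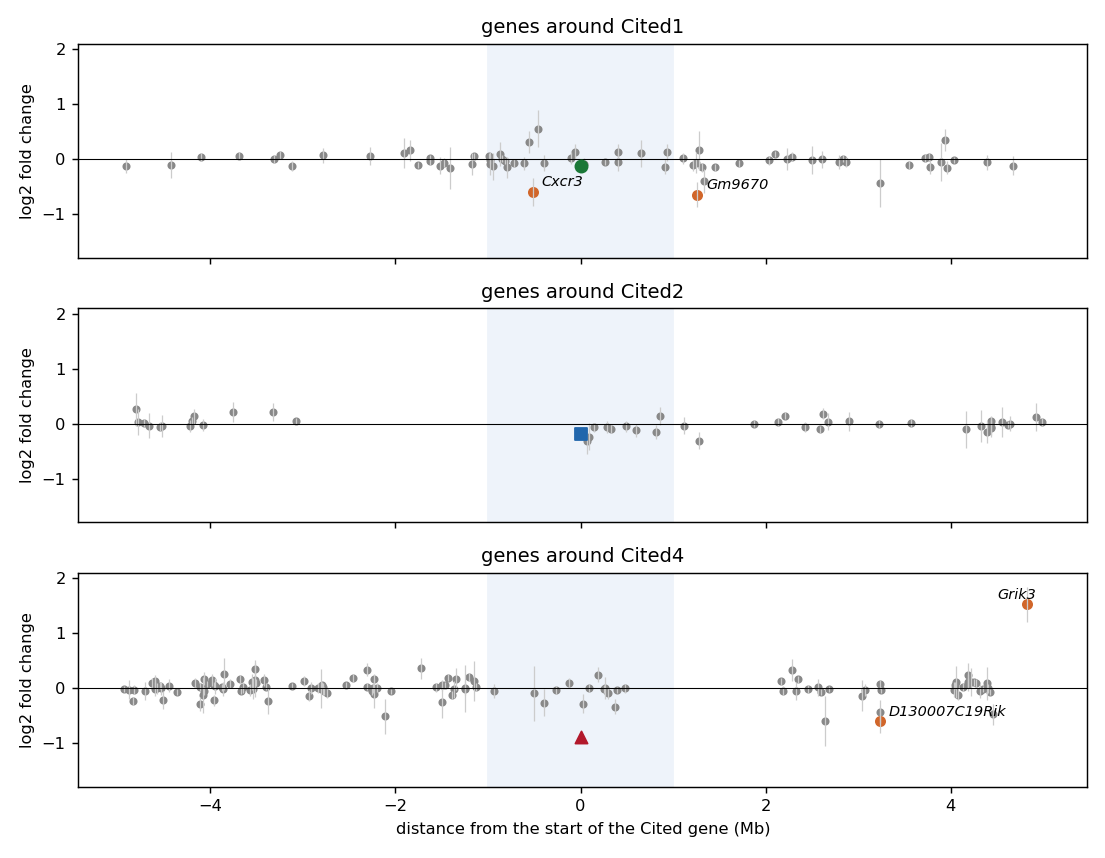
Log2 fold change, GOAT KO over WT in 8 libraries, of tested genes against the distance of their start from each Cited gene in Mb (grey points with SE, orange where called, shaded within 1 Mb); the coloured symbol at 0 is the Cited gene itself. Cited4 at -0.89 lies below its 14 neighbours within 1 Mb, and Grik3 at 1.52 is the highest point.

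CITED proteins act through partners, so the genes of these partners were compared next, as a list with 20 genes written with earlier results known. CBP (*Crebbp*), p300 (*Ep300*), SMAD, AP-2, hypoxia-inducible and nuclear receptor genes make up the list, and 17 were tested, since *Tfap2a*, *Tfap2b* and *Lhx2* were under the filter. None of the 17 was called (0 with an unadjusted p under 0.05 by edgeR, DESeq2 and limma-voom). Of all tested genes 1.67% were called and 4.62% had such a p by edgeR. Of the 17, 8 were positive and 9 negative, with a median of -0.03 beside -0.0003 for all genes. *Crebbp* averaged 125 CPM in the WT libraries and 114 CPM in the GOAT KO libraries (-0.14, SE 0.07, adjusted p = 0.983, edgeR). *Ep300* (-0.05, SE 0.08), *Hif1a* (-0.07, SE 0.08) and *Smad4* (0.001, SE 0.06) differed by less than their SE in 8 libraries. *Hif1a* was -0.14 without GOAT KO 1139 and in the 6 libraries and -0.0005 without GOAT KO 1141, and *Crebbp* was -0.06 without WT 1118.

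The other partners named here did not pass the call rule either. *Wt1*, a factor of granulosa and surface cells, had -0.21 (SE 0.14, adjusted p = 0.983, edgeR), from 174 CPM on average in WT to 151 CPM. Its value was -0.07 without WT 1118, -0.35 without WT 1120 and -0.33 in the 6 libraries. *Isl1*, a homeobox gene, had the highest value of the list at 0.50 (SE 0.30, adjusted p = 0.983, edgeR) from 0.487 and 0.684 CPM. *Tfap2c*, the AP-2 gene with the best known role in germ cells, was at 1.23 and 1.37 CPM (0.15, SE 0.20).

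Other acetyltransferases, coactivators and corepressors numbered 15, and 15 were tested. None was called (1 with an unadjusted p under 0.05 by edgeR, 2 by DESeq2 and 1 by limma-voom), beside 1.67% of all tested genes called and 4.62% with such a p by edgeR. The median was -0.08, with 12 negative and 3 positive, and the whole range ran from -0.14 to 0.01. The range in the 6 libraries was -0.26 to 0.05, with 13 negative and 2 positive, and 4 of 15 had an unadjusted p under 0.05, beside 9.46% of all tested genes, with 0 called by edgeR. *Ncoa3*, a coactivator of nuclear receptors, had -0.14 (SE 0.06, adjusted p = 0.983, edgeR) and *Med1*, a subunit of Mediator, -0.12 (SE 0.06, adjusted p = 0.983). Both lie well inside the fold limit of 0.5.

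Targets of the hypoxia-inducible factors, with which CITED2 competes, numbered 20, all tested and none called (0 with an unadjusted p under 0.05 by edgeR, DESeq2 and limma-voom). These counts stand beside 1.67% of all tested genes called and 4.62% with such a p by edgeR. The median of the 20 targets was 0.03, with 15 positive and 5 negative, and without GOAT KO 1139 it was -0.02, with 8 positive and 12 negative. *Pgk1*, a glycolytic enzyme gene, had 0.35 (SE 0.20, adjusted p = 0.983, edgeR), and it passed the rule only without WT 1120 (0.51). *Pfkfb3*, which encodes a regulator of glycolysis, had 0.23 (SE 0.16, adjusted p = 0.983, edgeR), which was 0.02 without GOAT KO 1139 and 0.11 in the 6 libraries. There 2 of the 20 targets and 2 of the 17 partner genes had an unadjusted p under 0.05, beside the same 9.46%, and 0 were called by edgeR.

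Genes that LH induces in ovulating follicles, the setting in which *Cited4* is known, were compared in these 3-week-old ovaries. Of 20 listed, 16 were tested and 1 was called (6.25%, beside 1.67% of all tested genes), while *Ptgs2*, *Sult1e1* and *Il6* were under the filter and *Areg* had no count in any library. The median log2 fold change was -0.06, with 6 positive and 10 negative, and single values ran from -0.23 to 1.89. In the 6 libraries 0 were called by edgeR, 2 had an unadjusted p under 0.05, and values ran from -0.64 to 0.80. *Tnfaip6*, which encodes a hyaluronan-binding protein of the expanding cumulus, was the only 1 called. It was at 0.535 ± 0.086 CPM in WT libraries and 0.968 ± 0.321 CPM in GOAT KO libraries (SD, n = 4), higher in GOAT KO and so opposite in direction to *Cited4* (0.83, SE 0.29, adjusted p = 0.983, edgeR). The call was lost without GOAT KO 1140 (0.61) and without WT 1120 and GOAT KO 1139 together (0.80).

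*Star*, which encodes the protein that brings cholesterol into mitochondria for steroid synthesis, had 1.89 (SE 0.95, adjusted p = 0.983, edgeR). Its mean of 68.0 CPM in GOAT KO rested on GOAT KO 1139 at 234 CPM, and without that library the fold change was -0.52. Without GOAT KO 1140, 1141 or 1146, which leaves GOAT KO 1139 more weight, *Star* passed the rule at 2.19 to 2.26.

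**Figure D5:**
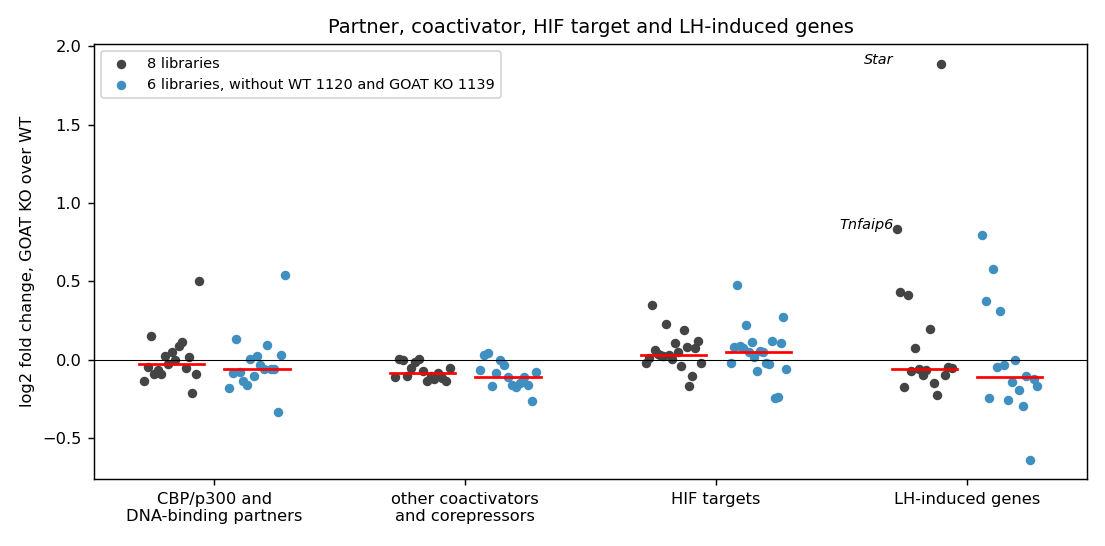
Log2 fold change, GOAT KO over WT, of each tested gene of 4 lists in 8 libraries (dark points) and in 6 libraries (blue points), with the median as a red line. In 8 libraries the partner genes run from -0.21 to 0.50 (Isl1), the coactivators from -0.14 to 0.01, the HIF targets from -0.17 to 0.35 (Pgk1) and the LH-induced genes from -0.23 to 1.89 (Star).

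Each gene's variation among mice of the same group was then compared with that of the other genes with a mean of at least 1 CPM, by Pearson's r over 8 libraries after the group means were removed. With 15459 genes and 8 libraries high values are common, so these are descriptions of these libraries. The 5 genes nearest to *Cited4* were *Dpf3* (r = 0.988), a chromatin remodelling subunit gene, *Plxna1* (0.986), a semaphorin receptor gene, *Src* (0.974), the tyrosine kinase gene, *Gstm6* (0.968) and *AU016765* (0.967). The 5 nearest to *Cited2* were *Cyp1b1* (r = 0.988), a cytochrome P450 gene, *Gm5834* (0.986), *Gpr155* (0.986), *Plcb2* (0.986) and *Kat2b* (0.984), an acetyltransferase gene that also stands in the coactivator list. The 5 nearest to *Cited1* were *1700086O06Rik* (r = 0.969), *Cep152* (0.965), a centrosome gene, *Slc4a3* (0.955), an anion exchanger gene, *Ethe1* (0.952) and *Dner* (0.951).

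In the set of 6 libraries the r of these 15 genes stayed between 0.873 and 0.982, but none of them was still among the 5 nearest. Among the Cited genes themselves r was -0.32 for *Cited1* and *Cited2*, 0.12 for *Cited1* and *Cited4* and -0.56 for *Cited2* and *Cited4* over 8 libraries. In the 6 libraries the last of these was 0.65, so the sign for *Cited2* and *Cited4* rested on WT 1120 and GOAT KO 1139, in which *Cited2* was lowest and *Cited4* high for its group.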

How the data were processed

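After cleaning, the authors aligned the reads to mm10 (GRCm38) by TopHat2 2.0.14 and assembled transcripts with StringTie 1.0.4 (versions per the submitters' processing notes). The deposited values are whole counts of reads per gene symbol, without normalization, and counts of reads across each splice junction. The deposited percent of reads on a single feature was 60.70 to 62.64 per library, and the deposited transcripts carry a constant score that was not used. The counting tool and its use of strand are not given in the sources used here.

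Counts were scaled by TMM and filtered by filterByExpr (minimum count 10), and GOAT KO was compared with WT by the quasi-likelihood test of edgeR 4.0.16 in R 4.3.3 over all genes kept, with Benjamini-Hochberg adjustment and the SE as the log2 fold change over the square root of F. The alternatives were RLE scaling, DESeq2 1.42.0, limma-voom (limma 3.58.1), no filter, each library left out, and 6 libraries. RPKM divides TMM-scaled CPM by exon length from GENCODE M21, a later release than the authors' guide. Levels were compared by an exact sign-flip permutation test over all sign changes of the paired differences. Neighbours are tested genes whose start lies within 1 or 5 Mb of a member's start. Likeness is Pearson's r of log2 CPM (prior count 2). The labels give 1 animal per library, so p-values measure the spread between these mice. A count of 0 was read as allowing up to 3 counts. The scripts were tested on simulated data.

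The genes named are *Mboat4*, the members, the called genes and the 2 with the smallest p of each list, 6 well known partners, the 3 nearest genes on each side and called genes within 1 Mb, and the 5 genes most alike, and others are said to be named after their values were seen. A result that this rule would name is not reported here. The members and lists were chosen with earlier results of these data known.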

Additional observations from a re-analysis of the deposited data

Results flagged for a closer look

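Within groups of 4 libraries, the highest or lowest value was set against the group's range, and 6 of 90 groups had a value far from the other 3, where chance gives about 1 in 20. The summed fat cell markers stood at 1237 CPM in GOAT KO 1139. *Star* stood at 234 CPM in GOAT KO 1139 and at 31.9 CPM in WT 1120. *Tfap2c* stood at 1.53 CPM in WT 1121, *Wt1* at 162 CPM in GOAT KO 1140 and *Ercc6l* at 23.2 CPM in WT 1118. No value of *Cited1*, *Cited2* or *Cited4* stood apart in this way.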

How the results depend on the processing

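No paired analysis was possible because the groups share no replicate number. Leaving out single libraries, *Cited1* ranged from -0.232 to 0.0484 on the log2 scale, and it was 0.10 without WT 1120 and GOAT KO 1139; *Cited2* and *Cited4* kept their sign under all 13 alternatives. Called genes ranged from 0 to 1 among the HIF targets and from 1 to 2 among the LH-induced genes with single libraries left out, and for the latter were 2 without a filter and 0 without WT 1120 and GOAT KO 1139. Within 5 Mb they ranged from 1 to 3 around *Cited1* (71 genes tested in 8 libraries) and from 1 to 4 around *Cited4* (126) with single libraries left out. They were 1 around each with DESeq2, and 1 around *Cited2* (45) without WT 1120 and GOAT KO 1139. Of all tested genes 1.67% were called in 8 libraries and 2.39% in 6. The level of *Cited4* over *Cited1* (log2) ranged from 0.33 to 0.57 with single libraries left out, was -0.25 with the longest transcript and -1.23 with the assembled length of *Cited1*, a choice made after seeing the data. Of the 5 genes most alike, 0 were shared with the 6-library set for each member, and with Spearman's correlation 1 for *Cited1*, 2 for *Cited2* and 1 for *Cited4*. With single libraries left out the log2 fold change ranged from -0.101 to 0.0319 for *Ep300*, -0.0331 to 0.0207 for *Smad4*, -0.52 to 2.30 for *Star*, -0.18 to 0.0118 for *Nhsl2*, -0.0780 to 0.0683 for *Ercc6l*, -0.0051 to 0.22 for *Rps4x*, -0.0319 to 0.30 for *Hivep2*, -0.0794 to 0.0081 for *Scmh1* and -0.0470 to 0.0352 for *Nfyc*. Without WT 1120 and GOAT KO 1139 it was -0.10 for *Star*, -0.0818 for *Hivep2*, 0.0292 for *Nfyc* and -0.0326 for *Smad4*, and *Smad4* was -0.0014 with RLE scaling, -0.0014 with DESeq2 and -0.0071 without a filter. The cause of these changes was not tested. Depth limits *Mboat4*, *Tnfaip6* and *Isl1*, which have few counts.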
